A study of Mus musculus with 4 samples.

Results

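A set of 10 genes that carry glucose from the medium to lactate was followed in libraries labelled as a lung epithelial line exposed to 1-nitropyrene, and is described here by read counts in every library. They were taken by name: the glucose transporter gene Slc2a1, and the glycolytic enzyme genes Hk1, Hk2, Pfkp, Aldoa (identifier ENSMUSG00000030695), Gapdh, Pgk1, Eno1, Pkm and Ldha. All 10 were among the 53465 genes of the count table, and 7 of the 10 had enough counts to be tested. RNA described as carrying poly(A) tails was sequenced from libraries labelled MLE-12, an immortalised mouse lung epithelial line used as a model of alveolar type 2 cells. The controls (n = 2 libraries, replicates 1 and 2) were cultured without the compound, and the treated cells (n = 2, replicates 2 and 3) were cultured with 5 µM 1-nitropyrene, a nitrated polycyclic hydrocarbon of diesel exhaust, for 12 h. No genetic change is given for either group. Whether each library had a culture of its own is not stated, and the p-values then measure only the spread between these libraries, which may be technical.

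Glycolysis splits each glucose into pyruvate and yields ATP and NADH outside the mitochondria. Glucose enters through a transporter, the early enzymes spend ATP to phosphorylate and cleave it, and the later enzymes recover ATP, NADH and pyruvate, which lactate dehydrogenase can reduce to lactate. Alveolar type 2 cells make surfactant, and growing cell lines usually take up much glucose. Many genes of the pathway are known targets of the hypoxia-inducible factor HIF and of MYC.

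The libraries held 6908055 to 10773733 counts, and levels below are TMM-normalised CPM, that is, counts scaled by the size and composition of their library. Between 44.3% and 46.1% of the counts of a library lay at ribosomal RNA loci, though the RNA was described as carrying poly(A) tails. How well that selection worked was not tested. No library had a count for 12111 of the 21942 protein-coding genes (55.2%), and 80 ribosomal protein genes had medians of 4.5 to 10 counts per library. Each level below is therefore the level of reads assigned to an annotated mouse locus, which may not be the level of that gene's mRNA. The reason for the missing genes, including whether the reads came from mouse cells and were aligned soundly, was not tested, and this limit holds for every level and copy count below. The markers did not bear out the label: all 8 epithelial markers were at 0 in all 4 libraries, among them Epcam, Cdh1 and Krt8, and so were 6 of 10 alveolar type 2 markers, among them Sftpb and Nkx2-1, with 1 count in all for Sftpc. The alveolar type 2 list summed to 14.5 and 13.3 CPM in control replicates 1 and 2 and to 15.1 and 14.4 CPM in treated replicates 2 and 3, nearly all of it from Abca3 (109, 56, 83 and 69 counts) and Etv5 (46, 37, 48 and 54 counts). Of the airway, endothelial and immune markers, 6 of 7, 3 of 6 and 4 of 7 were at 0 throughout. Fibroblast and smooth muscle markers, none of 10 at 0, summed to 11.6 and 5.87 CPM in control replicates 1 and 2, against 3.33 and 1.06 CPM in treated replicates 2 and 3. The mitochondrial mRNAs, scaled by library totals without TMM factors, summed to 46.9 and 30.4 CPM in the controls and to 24.6 and 1.86 CPM in the treated libraries. The part of either in the results below was not tested. Every call described for the 10 genes was also made without treated replicate 3, the lowest library in both, but treated replicate 2 lay below both controls in both sums too.

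Of the 7 genes tested, 5 were higher with 1-nitropyrene, 0 were lower and 2 were not called (edgeR's quasi-likelihood test, Benjamini-Hochberg adjusted p under 0.05). The counts were the same at an unadjusted p under 0.05 and with DESeq2. The share of all tested genes under that unadjusted p was not counted, here or for the copies and lists below. Gapdh rose most, to 1.85 times its control level, followed by Slc2a1 (1.26 times), Pkm (1.24 times), Aldoa (1.16 times) and Pgk1 (1.12 times). Of all tested genes, 1.49% had a log2 fold change as high as that of Gapdh or higher. The share was 13.3% for Slc2a1, 14.8% for Pkm, 22.7% for Aldoa and 28.4% for Pgk1. Genes called in either direction had a median absolute log2 fold change of 0.36. Among all 7738 genes tested, 13.2% were higher and 11.2% were lower. The median log2 fold change of the 7 genes was 0.22, against -0.0035 for all genes tested. Both treated libraries lay above both controls for 5 of the 7 genes, where 30.0% of all tested genes did so, and below both for 1, Hk1, where 29.2% did so. These genes include much used reference genes, which are often taken as constant between conditions.

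**Figure D1:**
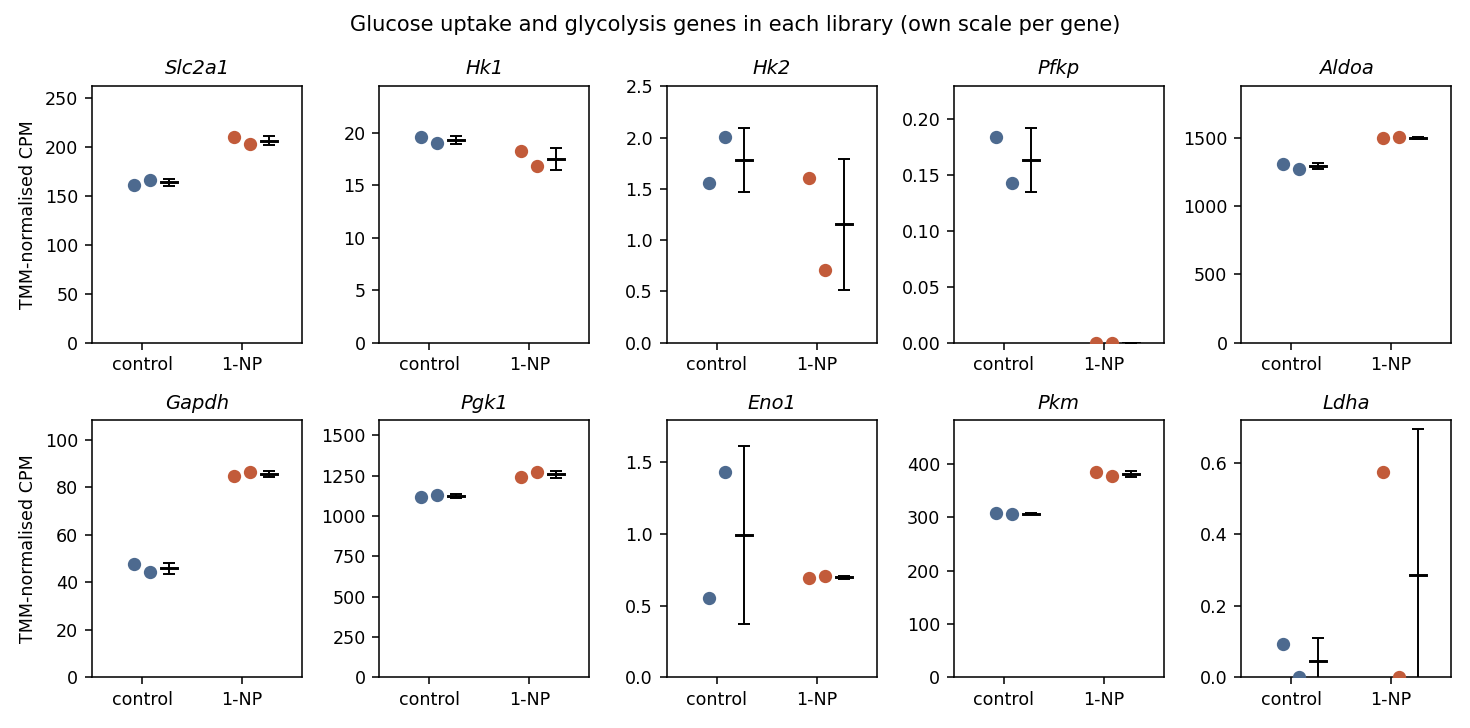
Level of each of the 10 genes (y axis, TMM-normalised CPM, a separate linear scale per gene starting at 0) in the 2 control and the 2 1-nitropyrene (1-NP) libraries. Points are libraries, and the bars beside them are the mean ± SD (n = 2), cut at 0 where the SD reaches below it. The treated points of Slc2a1, Aldoa, Gapdh, Pgk1 and Pkm lie above both control points, and Pfkp, Eno1 and Ldha lie under 2 CPM.

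The position of a read matters for these genes, because several of them have near-identical copies elsewhere in the genome. Processed pseudogenes arise when an mRNA is copied back into DNA, and glycolytic genes, Gapdh above all, have left many in the mouse. The annotated transcripts of GRCm38 that aligned to the mRNA of a gene at 90% identity or more over at least 200 bases were counted as its copies. Gapdh had 183 copies, Aldoa 5, Pgk1 2, Pkm 6, Eno1 6 and Ldha 15, while Slc2a1, Hk1 and Hk2 had 0. Those of Gapdh include loci that span or overlap another copy, so some sequence enters more than once. Examples are the coding gene Peli2 (18 counts in all) and Gm47854, which aligned on the opposite strand (15 counts). The 1 match of Pfkp was Pitrm1, an overlapping gene and not a copy.

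To show what a read has to tell apart, 75 bases of the coding sequence of each gene are printed with those of its copies that held most counts, 5′ to 3′, with capitals at each base that differs from the gene. Positions are counted from the A of the start codon in the annotated transcript of each gene with the longest coding sequence. They run from base 145 to base 219 for Gapdh, 2 to 76 for Pgk1 and 1 to 75 for Aldoa and Pkm. In other transcripts of a gene the positions may differ, and the printed bases may lie outside the coding sequence. For Gapdh the copies are Gm4795 (chr10:45006110-45007117, 93.1% identical over 998 bases), Gm3222 (chr17:14709066-14710055) and Gm12286 (chr11:63312310-63313311), all processed pseudogenes on GRCm38.
Gapdh: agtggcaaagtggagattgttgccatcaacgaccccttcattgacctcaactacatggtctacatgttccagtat
Gm4795: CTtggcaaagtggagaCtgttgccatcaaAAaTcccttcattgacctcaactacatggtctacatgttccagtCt
Gm3222: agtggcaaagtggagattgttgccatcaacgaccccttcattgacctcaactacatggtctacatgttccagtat
Gm12286: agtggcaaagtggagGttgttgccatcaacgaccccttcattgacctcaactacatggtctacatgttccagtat
Pgk1: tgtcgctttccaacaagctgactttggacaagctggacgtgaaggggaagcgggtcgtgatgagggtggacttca
Pgk1-rs7: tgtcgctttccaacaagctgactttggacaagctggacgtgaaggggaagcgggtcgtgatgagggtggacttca
Aldoa: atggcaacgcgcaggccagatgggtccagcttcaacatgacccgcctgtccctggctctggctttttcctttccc
Aldoart1: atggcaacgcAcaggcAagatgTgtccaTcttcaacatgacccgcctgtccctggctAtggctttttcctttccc
Pkm: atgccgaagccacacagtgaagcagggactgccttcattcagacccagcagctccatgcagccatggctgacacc
Gm6560: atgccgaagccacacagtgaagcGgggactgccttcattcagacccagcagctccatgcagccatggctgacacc
In these windows Gm4795 differed from Gapdh at 7 bases, Gm12286 at 1 and Gm3222 at 0, so that a read of Gm3222 that lay inside the window would match Gapdh equally well. Pgk1-rs7 did not differ from Pgk1, Gm6560 differed from Pkm at 1 base and Aldoart1 from Aldoa at 5.

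Uptake came first. Slc2a1 (chr4:119108711-119137983, forward strand) encodes GLUT1, the transporter that supplies most dividing cells with glucose. It stood at 161 and 166 CPM in the controls and at 209.7 and 203 CPM in the treated libraries. The groups did not overlap, and the means were 164 ± 3.32 and 206 ± 4.82 CPM (SD, n = 2 each). The log2 fold change was 0.34 (SE 0.05, edgeR adjusted p = 8.85e-11), a ratio of 1.26 with a 95% interval of 1.18 to 1.35. Gm12868, an antisense transcript that shares 105 exon bases with Slc2a1, moved by 0.31 on the log2 scale (edgeR adjusted p = 0.0237). That call was lost without treated replicate 3 (adjusted p = 0.285), control replicate 1 (0.0825) or control replicate 2 (0.164) and under DESeq2 (0.215), and, as nothing states whether the counting used strand, reads within the shared bases cannot be told apart. Slc2a1 was the 1 transporter of 13 listed that could be tested: 8 others, Slc2a3 among them, had 0 counts in all libraries, and 4 had counts below the filter.

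Hexokinases trap glucose in the cell by phosphorylating it. Hk1 (chr10:62268855-62379908), the widely expressed form, stood at 19.6 and 19.05 CPM without the compound, and at 18.3 and 16.8 CPM with it. Both treated values were below both controls, but the log2 fold change of -0.14 (SE 0.14, edgeR adjusted p = 0.518) was no larger than its error. The 95% interval of the ratio, 0.746 to 1.10, spans a fall and a small rise. Hk2 (chr6:82725025-82774454), the form that insulin and HIF are known to raise, was scarce, with 17 and 14 counts per control library and 14 and 6 per treated library. Its libraries overlapped at 1.56, 2.00, 1.61 and 0.704 CPM, and its log2 fold change of -0.57 (SE 0.51, edgeR adjusted p = 0.458) came with a ratio interval of 0.335 to 1.35. It was -1.28 without treated replicate 2 and -0.11 without treated replicate 3, neither called (edgeR adjusted p = 0.209 and 0.927). A change of the size seen for Slc2a1 was within that interval and was not detectable at this depth. Hk3 and Hkdc1 had 0 counts in every library, which allows up to 0.278 to 0.434 CPM per library (3 counts, scaled by library totals without TMM factors).

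Phosphofructokinase catalyses the committed step of the pathway. Pfkp (chr13:6579768-6648777), its platelet-type form, had 2 and 1 counts in the controls and 0 in both treated libraries, all under the limit of 3 counts, so no fold was formed. It shares 748 exon bases with Pitrm1 on the opposite strand, a mitochondrial peptidase gene, which had 181, 101, 93 and 92 counts and fell by 0.55 on the log2 scale (edgeR adjusted p = 0.00719). Pitrm1 was no longer called without control replicate 1 (log2 fold change -0.43, adjusted p = 0.233) or under DESeq2 (-0.54, 0.137). The liver form Pfkl carried most of the counts of the 3 forms, with 119 and 64 per control library and 95 and 89 per treated library, a log2 fold change of 0.06 (edgeR adjusted p = 0.865). The muscle form Pfkm, at 51, 21, 33 and 27 counts, had a log2 fold change of -0.21 (edgeR adjusted p = 0.692).

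Aldolase cleaves the doubly phosphorylated sugar into its triose phosphates. Aldoa (chr7:126795234-126800751) had more counts than any other of the 10 genes, 48872 in all. It stood at 1304 and 1273 CPM in the controls and at 1493 and 1502 CPM in the treated libraries, without overlap. Its log2 fold change was small and tightly measured, 0.22 (SE 0.03, edgeR adjusted p = 7.66e-16), a ratio of 1.16 (1.12 to 1.203). Aldoc, the brain form, had 0 counts in every library. The copies of Aldoa held 1.82% of the counts of the family, most of them at Aldoart1 (chr4:72850583-72852634), a testis-type aldolase gene. Aldoart1 had 159, 102, 175 and 181 counts, and its log2 fold change of 0.50 (edgeR adjusted p = 0.00446) was no longer called without treated replicate 3 (0.0529), control replicate 1 (0.0746) or under DESeq2 (0.103). With the copies added, a fit that called 13.2% of genes higher and 11.3% lower, Aldoa again gave a log2 fold change of 0.22.

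The payoff phase opens with glyceraldehyde phosphate dehydrogenase, which makes the NADH of glycolysis. Gapdh (chr6:125161715-125166467) stood at 47.6 and 44.3 CPM in the controls and at 84.6 and 86.5 CPM in the treated libraries. The control and treated means were 45.9 ± 2.37 and 85.6 ± 1.39 CPM (SD, n = 2 each), far apart against either spread. The log2 fold change was 0.89 (SE 0.08, edgeR adjusted p = 2.47e-28), and 1.49% of all tested genes had a value as high or higher. Iffo1, which shares 68 exon bases with Gapdh on the opposite strand, did not pass the test (log2 fold change 0.31, edgeR adjusted p = 0.151).

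Most reads of the Gapdh family were counted elsewhere. Gapdh itself held 2300 counts over the 4 libraries and its copies held 68609, which is 96.8% of the family. Of the 183 copies, 85 had a count, and the 10 with most counts held 85.4% of the copies' total. The share of the family at Gapdh itself was nearly the same in all libraries, 3.22% and 3.06% without the compound and 3.25% and 3.33% with it. The copies together rose from 1429.5 and 1402 CPM to 2514 and 2510.2 CPM. With Gapdh added, the family stood at 1477 and 1447 CPM in the controls and at 2599 and 2597 CPM in the treated libraries. Counted as 1 gene, the family had a log2 fold change of 0.83 (SE 0.02, edgeR adjusted p = 2.25e-264), a ratio of 1.78 (1.72 to 1.83).

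Many single copies were higher too. Of the 37 copies tested, 21 were higher, 0 were lower and 16 were not called, beside 13.2% of all genes called higher, and their median log2 fold change was 0.73. At an unadjusted p under 0.05 24 were higher and 0 lower, and DESeq2 called 20 and 0. Since copies may share reads with Gapdh and with each other, they are not independent of it. Gm4795, the copy with most counts, went from 220.2 and 229 CPM in the controls to 376 and 375 CPM in the treated libraries. Gm3222, whose window matches Gapdh throughout, went from 153 and 147 to 295 and 291 CPM. Copies more like Gapdh more often held counts: 34 of 110 between 90% and 95% identity, 32 of 48 between 95% and 99%, and 19 of 25 at 99% or more, with medians of 0, 4 and 53 counts. The 3 classes held 40.2%, 41.4% and 18.5% of the copies' counts. Single copies departed from this order, as Gm4795 held 10457 counts at 93.1% identity, while Gm10359 and Gm12671, identical to Gapdh over 1002 bases, held 680 and 633. How reads that fit several loci were placed is not given in the sources used here, and the part of that step in the level of Gapdh was not tested. Among the copies called, Gm10359 lost its call without control replicate 1 (adjusted p = 0.0895), and Gm5069, with 59 counts, lost it without control replicate 1 (0.0782) or treated replicate 3 (0.0619).

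**Figure D2:**
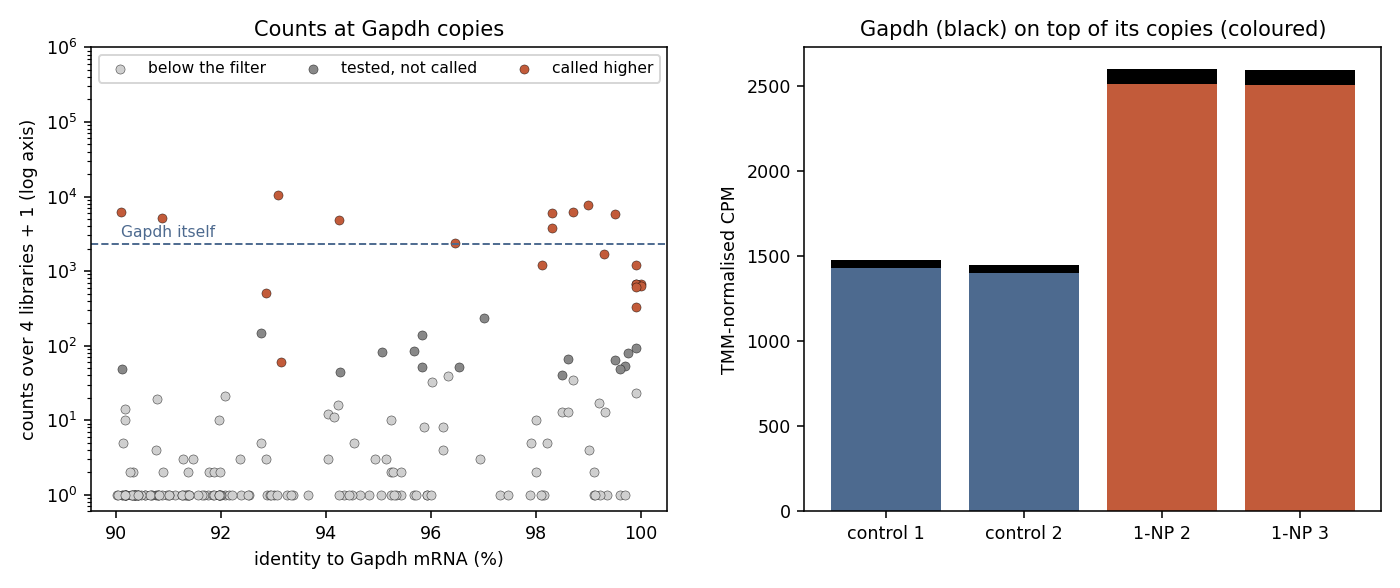
Left, counts over the 4 libraries plus 1 (log axis) of each of the 183 Gapdh copies against its identity to the Gapdh mRNA in percent, coloured by call, with a dashed line at the level of Gapdh. Right, TMM-normalised CPM per library of the copies (blue for control, red for 1-nitropyrene, 1-NP) with Gapdh in black on top: the black part is between 3.06% and 3.33% of each bar, and the treated bars reach 2599 and 2597 CPM against 1477 and 1447 CPM in the controls.

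Phosphoglycerate kinase recovers the first ATP. Pgk1 (chrX:106187100-106203699) stood at 1117 and 1132 CPM in the controls and at 1244 and 1273 CPM in the treated libraries. The groups did not overlap, yet the change was the least of the 5 called, a log2 fold change of 0.16 (SE 0.03, edgeR adjusted p = 1.48e-08) and a ratio of 1.12 (1.08 to 1.16). Its copy Pgk1-rs7, identical to the Pgk1 mRNA over 1255 bases, held 723, 457, 671 and 636 counts, and the 2 copies together 5.63% of the family. Pgk1-rs7 had a log2 fold change of 0.20 (edgeR adjusted p = 0.0287), which was no longer called without control replicate 1 (0.150), control replicate 2 (0.145) or treated replicate 2 (0.145), or under DESeq2 (0.232).

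Enolase prepares the substrate of pyruvate kinase. Eno1 (chr4:150236721-150248879), its form in most tissues, was below the filter with 6, 10, 6 and 6 counts, and its copies added 9 counts. The pooled ratio of treated to control was 0.762 with a 95% counting interval of 0.329 to 1.72, so that neither direction could be told. Eno2, the neuronal form, had more counts (123, 83, 67 and 75), and its log2 fold change of -0.48 just missed the threshold (edgeR adjusted p = 0.0563). Eno3 had 2, 0, 7 and 0 counts.

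Pyruvate kinase ends the pathway and makes its last ATP. Pkm (chr9:59656368-59679375) stood at 308 and 306 CPM in the controls and at 385 and 377 CPM in the treated libraries. Means were 307 ± 1.12 and 381 ± 5.93 CPM (SD, n = 2 each), without overlap. The log2 fold change was 0.31 (SE 0.04, edgeR adjusted p = 1.54e-14), a ratio of 1.24 (1.18 to 1.31). Its copies held 7.38% of the family, most of it at the processed pseudogene Gm6560, which overlapped between the groups at 290, 173, 208 and 230 counts (log2 fold change -0.03, edgeR adjusted p = 0.912). With the copies added the log2 fold change was 0.28. The table counts whole genes, so the splice forms of Pkm, which differ between resting and growing tissues, are not separated.

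Lactate dehydrogenase turns pyruvate into lactate and restores NAD for the Gapdh step. Ldha (chr7:46841475-46855627), the form that favours lactate, had 1, 0, 5 and 0 counts and was not tested. The pooled ratio of 5.08 had a 95% counting interval of 0.569 to 240.3 and rested on the 5 counts of treated replicate 2. Its 15 copies added 19 counts. Ldhb, the form of oxidative tissues, had 2 counts in all, in control replicate 2.

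**Figure D3:**
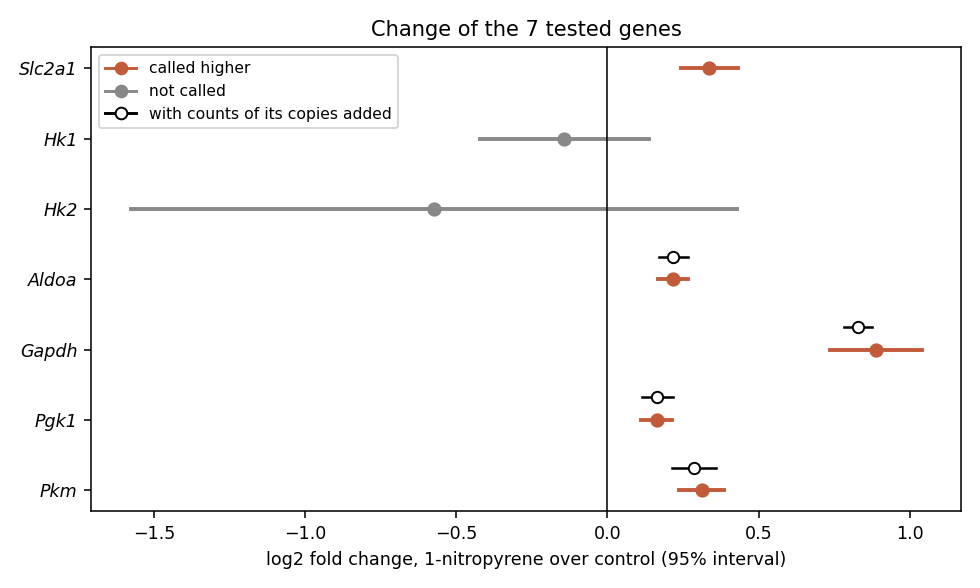
Log2 fold change of the 7 tested genes, 1-nitropyrene over control, with 95% intervals. Filled points are the genes as deposited (red, called higher; grey, not called), and open points those with the counts of their copies added. Slc2a1, Aldoa, Gapdh, Pgk1 and Pkm lie right of 0, and the interval of Hk2 is the widest.

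Per kilobase of exon, the control levels ranked Pgk1 (501 CPM per kb), Aldoa (443), Pkm (61.4), Slc2a1 (46.7), Gapdh (11.1), Hk1 (2.26) and Hk2 (0.299). The length used is that of all annotated exons of a gene merged, as 4.133 kb for Gapdh, 2.911 kb for Aldoa and 2.244 kb for Pgk1. It can exceed the length of a single mRNA, and the order under mRNA lengths was not tested. The order was the same with 1-nitropyrene, at 561, 515, 76.2, 58.8, 20.7, 2.05 and 0.194 CPM per kb. Within each group, the libraries of 1 gene did not overlap those of the next in the order. The rank of Gapdh refers to its own locus and leaves out the 96.8% of the family counted at its copies.

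All 5 calls were kept when any single library was left out, and also under DESeq2, which called 9.97% of the 5187 genes it gave an adjusted p higher and 6.15% lower. Tested against a change of at least 1.2-fold, which 3.09% of all tested genes passed upwards and 2.77% downwards, of the 10 genes only Gapdh was called (edgeR adjusted p = 2.84e-06), while Slc2a1 (0.181), Pkm (0.264), Aldoa (1) and Pgk1 (1) were not. In bulk RNA a change in RNA per cell and a change in the share of cells that express a gene cannot be told apart.

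The genes around the pathway did not move as a block. In the 10 lists of neighbouring steps, regulators and branches, 72 genes other than the 10 were tested, of which 15 (20.8%) were higher and 8 (11.1%) lower, beside 13.2% and 11.2% of all genes tested. Their median log2 fold change was 0.02. The named genes are the up to 4 with the smallest p in each list.

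Glucose phosphate isomerase Gpi1, the enzyme after hexokinase, rose from 20.3 ± 1.44 to 29.5 ± 0.04 CPM (SD, n = 2 each), a log2 fold change of 0.55 (SE 0.12, edgeR adjusted p = 9.47e-05). Adpgk, an ADP-dependent glucokinase, did not pass (0.04, edgeR adjusted p = 0.804). At the phosphofructokinase step 0 of 6 tested genes were higher by edgeR, by DESeq2 or at an unadjusted p under 0.05, and 1 was lower: Pfkfb3, which makes the activator of phosphofructokinase, went from 29.7 ± 0.30 to 23.8 ± 2.17 CPM (log2 fold change -0.32, edgeR adjusted p = 0.0339). Its call was lost without control replicate 1 (adjusted p = 0.167), control replicate 2 (0.122) or treated replicate 2 (0.279), or under DESeq2 (0.239). Pfkfb1, Pfkfb2 and Pfkfb4 had log2 fold changes of -0.17, -0.24 and -0.28 and did not pass.

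Of the aldolase and triose phosphate list, Gpd1 (-0.39, edgeR adjusted p = 0.113) and Gpd2 (0.02, 0.983), the glycerol phosphate dehydrogenases, did not pass. Tpi1, the triose phosphate isomerase, had 5, 2, 2 and 0 counts and was looked at after its values were seen. In the payoff list 4 of 6 tested genes were higher and 0 lower by edgeR and by DESeq2, with 1 lower, Eno2, at an unadjusted p under 0.05. Gapdh, Pgk1 and Pkm were 3 of the 4. The fourth was Pgam5, from 44.9 ± 4.58 to 63.2 ± 1.99 CPM (log2 fold change 0.47, edgeR adjusted p = 2.96e-07), which despite its name is a mitochondrial protein phosphatase. Pgam1, the mutase of the pathway itself, had a log2 fold change of 0.10 that did not pass (edgeR adjusted p = 0.0997).

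Lactate and pyruvate handling had 0 higher and 2 lower of 14 tested genes by edgeR, 0 and 1 by DESeq2, and 1 and 3 at an unadjusted p under 0.05. Pck2, the mitochondrial phosphoenolpyruvate carboxykinase, fell from 81.6 ± 0.41 to 54.1 ± 5.75 CPM, a log2 fold change of -0.59 (SE 0.08, edgeR adjusted p = 2.02e-13). Pdhb, a subunit of pyruvate dehydrogenase, fell by 0.35 on the log2 scale (edgeR adjusted p = 0.0182), a call lost without either control (0.104 and 0.0909), without treated replicate 3 (0.143) or under DESeq2 (0.179). Pdk3, a kinase that inhibits pyruvate dehydrogenase, and Pcx, pyruvate carboxylase, did not pass (log2 fold changes 0.46 and -0.31, edgeR adjusted p = 0.0614 and 0.0646). Pcx passed without treated replicate 3 (0.0201).

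In the pentose phosphate and hexosamine branches 3 of 10 tested genes were higher and 0 lower by edgeR, 2 and 0 by DESeq2, and 4 and 0 at an unadjusted p under 0.05. G6pdx, which opens the pentose phosphate pathway and makes NADPH, rose from 107 ± 3.88 to 133 ± 0.80 CPM (log2 fold change 0.32, edgeR adjusted p = 3.79e-07). Tkt, transketolase, rose by 0.37 (edgeR adjusted p = 0.00135, DESeq2 0.0645), and Uap1, which makes the sugar nucleotide used for glycosylation, by 0.53 (edgeR adjusted p = 1.07e-06). Gfpt1, the first enzyme of the hexosamine branch, did not pass (0.42, edgeR adjusted p = 0.0722) but did without control replicate 1 (0.0327).

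The glycogen list had 2 higher and 1 lower of 12, and 0 of either by DESeq2, with 3 and 1 at an unadjusted p under 0.05. The branching enzyme gene Gbe1 rose from 1.64 ± 0.11 to 4.53 ± 0.56 CPM (log2 fold change 1.47, edgeR adjusted p = 0.000684), the largest rise among the list genes tested, at low counts and with no adjusted p from DESeq2. Pgm1, which links glucose phosphates to glycogen, rose by 0.36 (edgeR adjusted p = 0.00117, DESeq2 0.0611). The phosphorylase gene Pygb fell by 0.31 (edgeR adjusted p = 0.0264), a call lost without control replicate 2 (0.286) or treated replicate 3 (0.180) or under DESeq2 (0.199), and Gsk3a, a kinase acting on glycogen synthase, did not pass (0.33, edgeR adjusted p = 0.0548).

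Among regulators of glycolysis 5 of 13 tested genes were higher and 3 lower by edgeR, beside 13.2% and 11.2% of all genes tested. The counts were 4 and 1 by DESeq2, and 5 and 4 at an unadjusted p under 0.05. Stk11, the kinase LKB1 that activates the energy sensor AMPK, fell from 49.6 ± 3.36 to 29.4 ± 0.20 CPM, which is -0.74 on the log2 scale (SE 0.10, edgeR adjusted p = 3.23e-12). The kinases of insulin signalling Akt1 and Akt2 rose by 0.18 and 0.77 (edgeR adjusted p = 6.33e-08 and 1.49e-05), from 731 ± 16.3 to 826 ± 11.2 CPM for Akt1 and from 11.6 ± 0.64 to 19.6 ± 1.45 CPM for Akt2. Egln2, an oxygen sensor that marks HIF for degradation, rose by 0.69 (edgeR adjusted p = 2.30e-06). Hif1a, picked after its values were seen, went from 56.2 ± 1.497 to 67.1 ± 3.08 CPM (log2 fold change 0.25, edgeR adjusted p = 0.00792), a call lost without control replicate 1 (0.0562), control replicate 2 (0.0893) or treated replicate 2 (0.115), or under DESeq2 (0.139). Egln1, a second oxygen sensor of HIF, rose by 0.20 (edgeR adjusted p = 7.13e-05), while Hif1an, an inhibitor of HIF, and Mlx, a partner of glucose-sensing factors, fell by 0.28 and 0.21 (edgeR adjusted p = 0.0212 and 0.00584). Neither was called without control replicate 1 (log2 fold changes -0.24 and -0.21, adjusted p = 0.266 and 0.0776) or under DESeq2 (-0.28 and -0.22, 0.206 and 0.107), nor was Hif1an without treated replicate 3 (0.107) or Mlx without treated replicate 2 (0.0632).

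HIF targets outside glycolysis had 3 higher and 1 lower of 10 by edgeR, 2 and 1 by DESeq2, and 3 and 1 at an unadjusted p under 0.05. Tfrc, the transferrin receptor, rose from 336 ± 0.90 to 446 ± 23.0 CPM (log2 fold change 0.41, edgeR adjusted p = 1.18e-26), and Kdm3a, a histone demethylase, by 0.31 (edgeR adjusted p = 2.78e-05). Mxi1, a MYC antagonist, rose by 0.24 (edgeR adjusted p = 0.0118), a call lost without control replicate 2 (0.247) or treated replicate 2 (0.153) or under DESeq2 (0.167). Ddit4, a stress-induced inhibitor of mTOR, fell from 31.7 ± 0.99 to 12.6 ± 1.18 CPM, a log2 fold change of -1.33 (SE 0.14, edgeR adjusted p = 2.82e-20), in the opposite direction to the other 3. Vegfa, a much used HIF target picked after its values were seen, had a log2 fold change of -0.09 (edgeR adjusted p = 0.426).

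**Figure D4:**
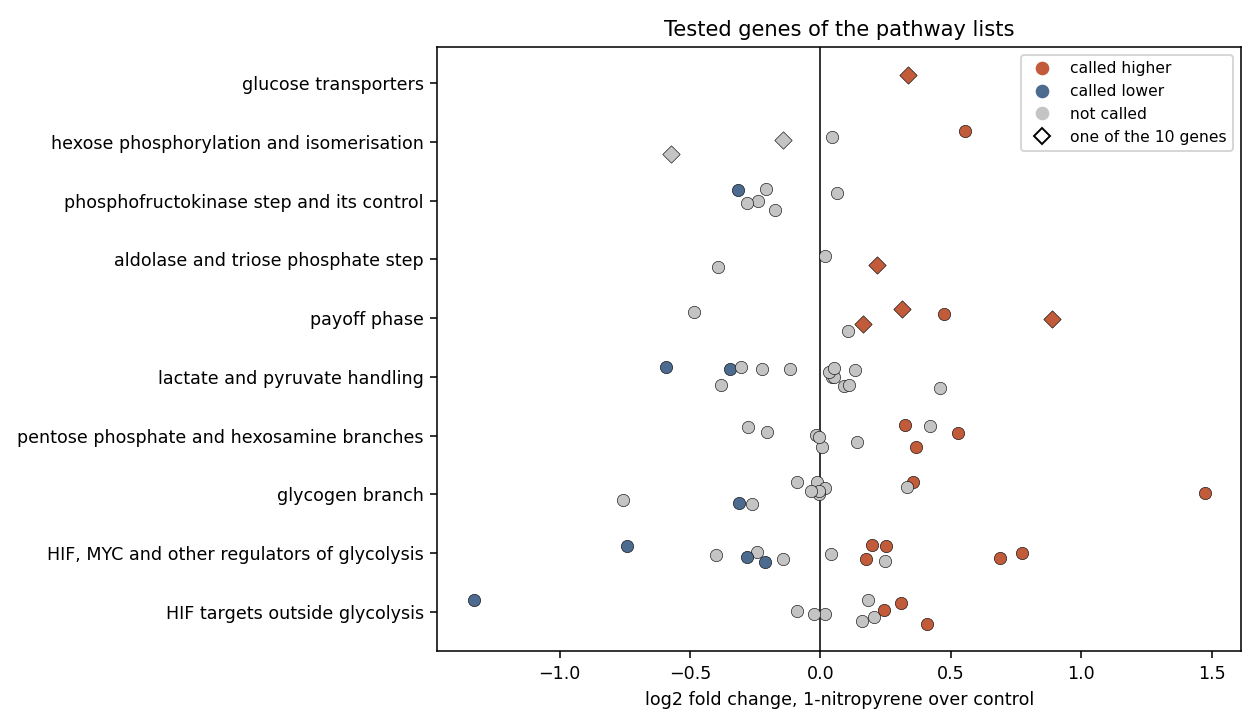
Log2 fold change, 1-nitropyrene over control (x axis), of each tested gene of the 10 pathway lists (rows). Red and blue points were called higher and lower, grey points were not called, diamonds are the 10 genes followed here, and vertical offsets only separate the points; of the other 72 genes, 15 are red and 8 blue.

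The upstream sequences of 3 of the called genes are shown because HIF acts on many glycolytic promoters. Each is the 250 bases before the first listed RefSeq start (GRCm38.p6), read in the direction of the gene, with capitals at ACGTG or its reverse complement CACGT, the core letters of the element HIF binds. They lie at chr4:119108495-119108744 (forward strand) for Slc2a1, chrX:106186850-106187099 (forward) for Pgk1 and chr6:125165774-125166023 (reverse) for Gapdh.
Slc2a1: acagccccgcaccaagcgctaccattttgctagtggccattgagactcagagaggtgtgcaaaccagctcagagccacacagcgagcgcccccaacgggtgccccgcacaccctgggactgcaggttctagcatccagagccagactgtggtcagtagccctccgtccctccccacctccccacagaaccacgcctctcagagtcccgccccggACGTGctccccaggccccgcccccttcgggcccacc
Pgk1: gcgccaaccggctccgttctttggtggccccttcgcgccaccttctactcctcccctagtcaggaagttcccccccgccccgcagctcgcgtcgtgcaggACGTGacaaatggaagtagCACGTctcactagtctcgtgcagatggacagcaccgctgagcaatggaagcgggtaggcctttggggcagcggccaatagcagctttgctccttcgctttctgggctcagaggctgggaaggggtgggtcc
Gapdh: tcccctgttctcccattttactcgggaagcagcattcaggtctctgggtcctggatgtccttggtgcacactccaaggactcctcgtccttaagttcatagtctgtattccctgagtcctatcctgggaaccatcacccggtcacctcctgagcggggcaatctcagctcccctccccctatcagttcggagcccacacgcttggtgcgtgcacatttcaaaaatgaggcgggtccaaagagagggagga
Slc2a1 holds 1 match, which begins at position -36 from the start, Pgk1 holds 2 and Gapdh holds none. Over the first listed starts, 4 of the 10 genes hold ACGTG on either strand, Slc2a1, Hk2, Pgk1 and Ldha, beside 16.6% of 27025 promoters of the same length. CACGTG, the letters MYC binds, which contain the former motif, lies in 1 of the 10, Ldha, beside 6.05% of promoters. The end of the promoter sequence at this first listed Ldha start matched no annotated Ldha transcript in either direction. The later listed Ldha start holds neither motif. Aldoa and Pkm hold ACGTG before a later listed start. Of the 4 genes with a match, Slc2a1 and Pgk1 were called higher, Hk2 was not called and Ldha was not tested. Gapdh, with the largest change, has no ACGTG or CACGT in its window, but the window does hold the uncounted GCGTG. A match of letters is a description of the sequence and shows no binding.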

How the data were processed

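RNA-seq read counts of 4 mouse libraries (2 control, 2 with 1-nitropyrene) were used, with groups and replicate numbers from the titles. The authors deposited raw counts per gene, 1 column per library, per the file headers, and the kit for the libraries keeps strand, per the labels' protocols. GRCm38 (mm10), HISAT2 2.1.0, featureCounts 1.6.3 and DESeq2 are named in the submitters' processing notes, without roles. For the annotation, the strand setting and multiply mapping reads, the choice made is not given in the sources used here.

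Of 53465 identifiers, 53360 matched GENCODE M21, and the other 105, with 26 to 37 counts per library, were kept. Counts were fitted with edgeR 4.0.16 (R 4.3.3, limma 3.58.1): filterByExpr left 7738 genes, TMM factors were 0.989 to 1.01, and glmQLFit with legacy set to FALSE was followed by a two-sided test with Benjamini-Hochberg adjustment over all of them. The coefficient of biological variation was 2.34% and the prior degrees of freedom were infinite. Genes of like level therefore share 1 spread, and no gene has a spread of its own. SE is the size of the log2 fold change over the root of the F statistic, and intervals are at the 95% level. Pooled ratios of untested genes use exact binomial intervals and, like the floor of 3 counts, cover counting error only. An exact permutation test of 2 against 2 libraries cannot give a p under 0.333 and was not used. Chi-square per degree of freedom, over genes with at least 10 counts, was 1.62 between the controls, 2.05 between the treated libraries and 9.43 between control replicate 2 and treated replicate 2, and no libraries were merged.

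Copies were found with BLAST 2.17.0 among the annotated transcripts. Windows of coding sequence come from GENCODE transcripts, upstream sequences from the RefSeq promoter table, in which all 10 genes were found. The fit was also run on counts simulated from the kind of model it assumes, with independent libraries. Such a run says nothing of technical replicates or of reads shared between loci. Members and lists were chosen with earlier results of these data known. Named are all 10 genes, their isozymes (some are not reported here), up to 4 further tested genes with the smallest p per list, and the 3 copies with most counts per gene. Genes that share exons with a member, Gm10359, Gm12671, Gm5069, Tpi1, Hif1a, Egln1, Hif1an, Mlx and Vegfa were named after their values were seen. Alternatives were other scalings, filters and tools (DESeq2 1.42.0, limma-voom), a test against 1.2-fold, an adjusted p under 0.01, and each library left out.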

Additional observations from a re-analysis of the deposited data

How the results depend on the processing

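The 5 calls among the 10 genes kept their direction under all alternatives and their side of the threshold under all but the test against 1.2-fold, which left 1, Gapdh. Over the alternatives, the log2 fold change ranged from 0.83 to 0.95 for Gapdh, 0.31 to 0.36 for Slc2a1, 0.28 to 0.33 for Pkm, 0.19 to 0.23 for Aldoa and 0.13 to 0.18 for Pgk1, and Hk1 (-0.21 to -0.08) and Hk2 (-1.28 to -0.11) stayed uncalled. With 1 library left out, 5 of the 10 genes were called higher and 0 lower each time; the lone library of a group is then assumed to vary like the other pair. Over all genes, 1024 were called higher and 870 lower, which became 517 and 319 under DESeq2, 239 and 214 against 1.2-fold, and 690 to 861 and 511 to 647 with 1 library left out, with 511 lower and 690 higher without control replicate 1. Without a filter 532 were lower, and 568 at an adjusted p under 0.01. Of the pathway lists, 20 genes were higher and 8 lower, against 8 and 3 for the 1.2-fold test; 3 were lower under DESeq2, 4 without a filter, 4 at an adjusted p under 0.01, and 5 to 7 with 1 library left out, 5 without either control. The cause of the lower counts was not tested for DESeq2, and the other settings are stricter or use fewer samples or more genes. Hk2, Eno1 and Ldha had 51, 28 and 6 counts, and the intervals of their ratios span both directions. No scaling moved the median of all genes by more than 0.03 on the log2 scale. No paired analysis was possible because the groups share only replicate number 2.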
